A study of Mus musculus with 16 samples.

Results

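Sirpa, Cd4, Esam, Cd209a, Mgl2, S100a4 and Lyz2 are surface and effector genes used to describe the cDC2 subset of classical dendritic cells (DCs), and they were followed here over 8 groups of sorted mouse DCs. They were taken by gene symbol. Each of the 7 was measured by 1 probe set that carried its symbol alone, out of 19938 genes tested. RNA was hybridised to 16 Affymetrix Mouse Gene 1.0 ST arrays, and the values are log2 signals. CD172a+ cells (the cDC2 sort) and CD24+ cells (the cDC1 sort) came either from bone marrow grown in 5% Flt3l for 9 days and then activated with gamma interferon and for 4 hours with LPS, or from unactivated spleen. The 8 groups were CD172a+ and CD24+ cells of culture KO, culture WT, spleen KO and spleen WT, with 2 arrays each. KO mice were Ciita -/-, Zbtb46 GFP/+ and WT mice were Ciita +/+, Zbtb46 GFP/+, so all mice carried 1 GFP allele of Zbtb46, and all were of strain B6. Ages are not given in the labels. The 8 mice each gave 1 CD172a+ and 1 CD24+ array, which leaves 2 mice for each genotype and tissue. The labels compare activated culture with unactivated spleen, so the tissue of origin, the culture and the activation cannot be told apart. The time in gamma interferon is 22 hours in the growth protocol and 16 hours in the series design.

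Classical DCs capture antigen and present it to T cells, and they fall into the cDC1 subset, known for cross-presentation, and the cDC2 subset, known for priming CD4 T cells. Spleen cDC2 are usually recognised by CD172a, the inhibitory receptor encoded by Sirpa, and many of them carry CD4 and the adhesion molecule ESAM, which depend on Notch2 signals in the spleen. Other cDC2 carry C-type lectins such as CD209a and MGL2, or myeloid genes such as Lyz2.

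The sort was visible in the marker genes. Of 14 listed cDC1 markers, Cd24a among them, 11 were lower and 1 higher in CD172a+ than in CD24+ cultured cells. In spleen 13 were lower. All genes called lower were 11.2% in culture and 15.6% in spleen. Among the lower markers were the chemokine receptor gene Xcr1 (log2 difference -3.93 in culture and -5.41 in spleen) and the dead-cell receptor gene Clec9a (-3.96 and -4.90). Batf3 of that list read 11.64 to 12.14 in cultured CD172a+ and 10.93 to 11.56 in cultured CD24+ arrays. Irf8 read 13.37 to 13.48 in cultured CD172a+ and 13.32 to 13.58 in cultured CD24+ arrays. For Cd24a, which encodes the other sort antigen, the difference was -0.05 in culture (limma adjusted p = 0.669), against -2.03 in spleen. Of 11 genes of classical DC identity, 2 were higher and 7 lower in CD172a+ cultured cells, where 13.7% and 11.2% of all genes were called. In spleen 5 were higher and 3 lower, where 13.4% and 15.6% of all genes were called. Itgax of that list read 7.86 to 8.66 in cultured CD172a+ and 10.86 to 11.08 in cultured CD24+ arrays. In spleen it read 12.91 to 13.06 in CD172a+ and 12.21 to 12.54 in CD24+ arrays. Of 16 measured genes of the activation list, 13 were higher in culture than in spleen in CD172a+ cells and 13 in CD24+ cells, where 16.6% and 13.8% of all genes were called higher. Ciita, the gene deleted in KO mice, read 7.17 to 9.70 in the culture KO arrays against 10.15 to 10.85 in culture WT, while in spleen it read 10.90 to 11.28 in KO and 10.97 to 11.40 in WT. Whether its probe set lies in the deleted part is not known. The MHC class II genes, which Ciita drives, ran the way the labels say in spleen too: of 8 measured, limma called 8 lower in KO than in WT CD172a+ cells and 7 in CD24+ cells, and the mean of the list lay between 11.04 and 11.43 in spleen KO arrays against 12.84 to 13.22 in spleen WT arrays. A pair of arrays stood apart from the others of their sort. In replicate 2 of spleen CD24+ KO the neutrophil genes Ngp (10.5) and S100a8 (10.1) were the highest of the 4 spleen CD24+ arrays. The mean of the 4 measured red cell markers was also highest in it, at 7.59 against 6.75 to 7.08 in the other spleen CD24+ arrays. In replicate 2 of culture CD24+ KO, Xcr1 was the lowest of 4 at 9.58. For the 7 genes and the gene lists, values without these arrays are given beside a result where they change its call or move a count by 1.5 times or more. Of 8 measured genes of plasmacytoid DCs, 2 were higher and 2 lower in CD172a+ than in CD24+ cultured cells. Without replicate 2 of culture CD24+ KO, 3 were higher. Tcf4 of that list read 12.30 to 12.42 in cultured CD172a+ and 10.98 to 11.37 in cultured CD24+ arrays. Other genes of the list did not follow it. In the same order, Pacsin1 read 8.3 to 8.6 and 9.3 to 9.9, and Ccr9 5.8 and 6.2 to 6.7. Siglech overlapped, at 6.45 to 6.68 and 6.51 to 6.69. Whether other cells were among the sorted cells was not tested.

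The 7 genes fell into 3 patterns when the CD172a+ minus CD24+ difference was compared between activated culture and spleen. Sirpa and S100a4 were higher in CD172a+ cells in both. Cd4, Esam, Cd209a and Mgl2 were higher in CD172a+ cells of the spleen, whereas in culture the means of their 2 subsets lay within 0.17 of each other on the log2 scale. Lyz2 was 24.1-fold lower in CD172a+ than in CD24+ cultured cells and differed by -0.21 on the log2 scale between the spleen subsets. By limma with Benjamini-Hochberg adjustment over 19938 genes (threshold 0.05, mean of both genotypes), 2 of 7 genes were higher in CD172a+ cultured cells, against 13.7% of all genes. In culture 1 of 7 was lower, against 11.2%, with 24.9% of all genes called in either direction. In spleen 6 of 7 were higher in CD172a+ cells, where 13.4% of all genes were called higher and 29.1% in either direction. The difference between the 2 differences (culture minus spleen) was called in 6 of 7, all lower, against 12.5% of all genes called lower and 28.2% in either direction. The median CD172a+ minus CD24+ difference of the 7 genes was 0.04 in culture and 2.22 in spleen, beside 0.03 and -0.03 over all genes. The genes were chosen with earlier results of these data known, and Sirpa encodes the sort antigen itself.

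**Figure D1:**
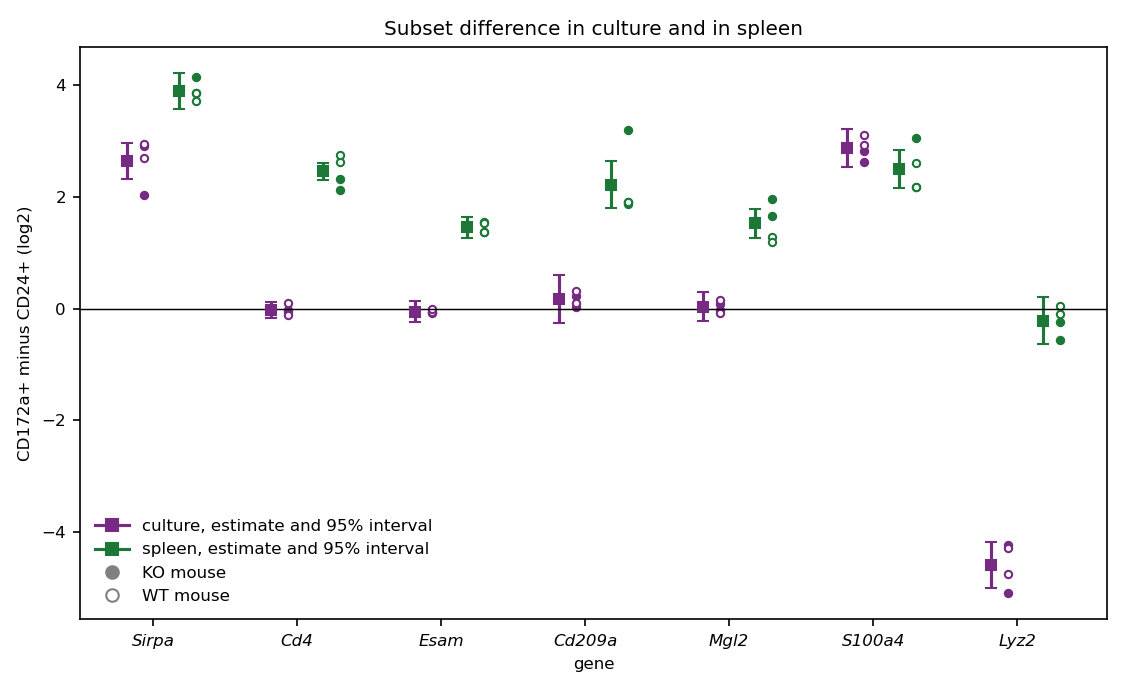
CD172a+ minus CD24+ difference of the 7 genes on the log2 scale, in activated culture and in spleen, as the mean of both genotypes with its 95% interval and the 4 single mice of each tissue as points. Cd4, Esam, Cd209a and Mgl2 lie near 0 in culture, Sirpa (2.64) and S100a4 (2.87) stay well above it, and Lyz2 lies at -4.59.

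RefSeq promoter sequences (GRCm38.p6) were at hand for 4 of the 7 genes, which between them cover a kept difference (S100a4), 2 lost ones (Cd209a and Mgl2) and the one that was lower in cultured CD172a+ cells (Lyz2). They are shown so that the upstream sequence of each pattern can be read beside its values. Each is the 250 bases before the annotated start, 5′ to 3′ on the strand of the gene, and capitals mark the letters AGGAAG or their reverse complement CTTCCT, a core bound by the myeloid factor PU.1. The windows are chr8:3748985-3749234 on the minus strand for Cd209a, chr11:70130107-70130356 on the plus strand for Mgl2, chr3:90603520-90603769 on the plus strand for S100a4 and chr10:117282273-117282522 on the minus strand for Lyz2.
Cd209a: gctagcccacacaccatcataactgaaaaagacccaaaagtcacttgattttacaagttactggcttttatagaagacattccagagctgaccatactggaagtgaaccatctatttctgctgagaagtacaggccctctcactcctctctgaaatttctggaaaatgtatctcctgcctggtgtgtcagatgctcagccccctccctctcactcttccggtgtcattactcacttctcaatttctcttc
Mgl2: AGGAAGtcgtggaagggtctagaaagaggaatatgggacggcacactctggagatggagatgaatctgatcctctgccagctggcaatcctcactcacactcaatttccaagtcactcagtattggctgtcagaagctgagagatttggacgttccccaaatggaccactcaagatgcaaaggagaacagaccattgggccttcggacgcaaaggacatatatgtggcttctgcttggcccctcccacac
S100a4: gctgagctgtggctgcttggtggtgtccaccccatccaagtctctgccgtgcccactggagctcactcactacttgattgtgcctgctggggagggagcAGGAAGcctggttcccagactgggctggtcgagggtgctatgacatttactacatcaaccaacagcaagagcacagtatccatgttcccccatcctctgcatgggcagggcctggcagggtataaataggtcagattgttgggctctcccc
Lyz2: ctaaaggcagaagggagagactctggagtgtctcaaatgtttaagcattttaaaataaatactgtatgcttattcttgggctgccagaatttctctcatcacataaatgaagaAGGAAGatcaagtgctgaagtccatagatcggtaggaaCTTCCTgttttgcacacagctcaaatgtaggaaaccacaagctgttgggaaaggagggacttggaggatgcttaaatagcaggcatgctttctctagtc
AGGAAG was searched on both strands and found 0 times in the Cd209a window, once each for Mgl2 and S100a4, and 2 times for Lyz2, 1 on each strand. Of 32851 promoter windows of the same length, 29.5% hold it. TATAAA, the TATA box letters, was found in the S100a4 window on the gene's strand and in the Cd209a window on the other strand, and 12.4% of windows hold it on either strand. TGGGAA, a core of the site bound by the Notch partner RBPJ, was found once each in the S100a4 and Lyz2 windows (21.6% of windows). These are matches of letters, not shown sites.

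Sirpa, whose protein is the sort antigen, had the largest spleen difference of the 7 genes and kept a difference in culture. It encodes CD172a, which binds CD47 and restrains phagocytosis. In culture it read 11.26 and 11.20 in CD172a+ KO arrays and 11.07 and 11.37 in CD172a+ WT arrays, against 8.36 and 9.17 in CD24+ KO and 8.38 and 8.43 in CD24+ WT. In spleen it read 12.70 and 12.58 in CD172a+ KO and 12.68 and 12.64 in CD172a+ WT, against 8.84 and 8.43 in CD24+ KO and 8.82 and 8.92 in CD24+ WT. The subsets did not overlap in either tissue. The difference was 2.64 ± 0.15 (SE) in culture, or 6.23-fold, and 3.90 ± 0.15 in spleen, or 14.9-fold (4 mice each). These 2 values describe the sort. The difference was smaller in culture by -1.26 ± 0.21 (limma adjusted p = 0.00061), and the single mice did not overlap, at 2.03 to 2.95 in culture and 3.72 to 4.15 in spleen. The CD24+ array that read 9.17 was replicate 2, the one with the lowest Xcr1, and without it the change was -1.05 ± 0.13 (adjusted p = 5.16e-05).

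Cd4 encodes the co-receptor that binds MHC class II, best known from helper T cells and carried by many spleen cDC2 in mice. Its values in culture were 6.06 and 6.21 in CD172a+ KO and 6.03 and 6.27 in CD172a+ WT, against 6.13 and 6.23 in CD24+ KO and 6.14 and 6.18 in CD24+ WT. In spleen they were 10.29 and 10.14 in CD172a+ KO and 10.35 and 10.34 in CD172a+ WT, against 7.97 and 8.01 in CD24+ KO and 7.73 and 7.60 in CD24+ WT. All 8 culture arrays lay in one narrow overlapping band below every spleen array, while the spleen subsets stood clear of each other. The difference was -0.03 ± 0.07 in culture (95% interval -0.17 to 0.12, limma adjusted p = 0.847) and 2.45 ± 0.07 in spleen (adjusted p = 5.1e-11), and the change between them was -2.48 ± 0.09 (adjusted p = 3.42e-09). The arrays give no detection calls, so a low level and the absence of a transcript cannot be told apart near the lower end of the scale. In bulk sorted cells, fewer cells that carry a transcript and less transcript per cell cannot be told apart either.

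Esam, which encodes an endothelial and leukocyte adhesion molecule that marks the Notch2-dependent cDC2 of mouse spleen, followed Cd4. In culture it read 6.49 and 6.66 in CD172a+ KO and 6.58 and 6.48 in CD172a+ WT, against 6.57 and 6.72 in CD24+ KO and 6.63 and 6.49 in CD24+ WT. In spleen it read 9.14 and 9.06 in CD172a+ KO and 8.99 and 9.36 in CD172a+ WT, against 7.60 and 7.69 in CD24+ KO and 7.61 and 7.82 in CD24+ WT. The spleen subsets were separate by over 1 log2 unit and the culture subsets overlapped. The difference was -0.05 ± 0.08 in culture (95% interval -0.24 to 0.13, limma adjusted p = 0.747) and 1.46 ± 0.08 in spleen (adjusted p = 5.7e-08). The change was -1.51 ± 0.12 (adjusted p = 1.97e-06). In all 4 culture mice the CD172a+ value was the lower one, by no more than 0.09, and in all 4 spleen mice it was the higher one, by 1.37 to 1.54.

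The 2 lectin genes showed the same loss of difference in culture. Cd209a encodes a mouse relative of human DC-SIGN, a receptor for mannose-type glycans. In culture it read 6.29 and 6.30 in CD172a+ KO and 6.68 and 6.30 in CD172a+ WT, against 6.06 and 6.27 in CD24+ KO and 6.36 and 6.20 in CD24+ WT. In spleen it read 11.69 and 11.79 in CD172a+ KO and 11.88 and 11.75 in CD172a+ WT, against 9.82 and 8.60 in CD24+ KO and 9.98 and 9.85 in CD24+ WT. The spleen subsets did not overlap, and 1 CD24+ KO array lay over 1 log2 unit below the other 3. In culture every mouse had the higher value in its CD172a+ array, by 0.02 to 0.32, and the mean difference of 0.17 ± 0.20 did not pass the test (95% interval -0.26 to 0.60, limma adjusted p = 0.626). In spleen it was 2.22 ± 0.20 (adjusted p = 2.56e-06), and the change was -2.05 ± 0.28 (adjusted p = 0.00014). Each SE pools the spread over all 8 groups. That spread was largest in spleen CD24+ KO (SD 0.865, against 0.007 to 0.267 in the culture groups). The low array was replicate 2, the one with high neutrophil genes, and without it the change was -1.74 ± 0.13 (adjusted p = 4.46e-06).

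Mgl2 encodes a galactose-type lectin (CD301b) of mouse dermal and other cDC2. In culture it read 5.66 and 5.59 in CD172a+ KO and 5.71 and 5.50 in CD172a+ WT, against 5.57 and 5.61 in CD24+ KO and 5.56 and 5.57 in CD24+ WT. In spleen it read 7.94 and 8.59 in CD172a+ KO and 7.63 and 7.66 in CD172a+ WT, against 6.28 and 6.63 in CD24+ KO and 6.35 and 6.47 in CD24+ WT. The spleen subsets were separate in each genotype, and the culture arrays all lay below the spleen arrays. The difference was 0.04 ± 0.12 in culture (95% interval -0.22 to 0.30, limma adjusted p = 0.886) and 1.52 ± 0.12 in spleen (adjusted p = 8.67e-07). The change was -1.49 ± 0.17 (adjusted p = 3.52e-05). Clec10a, the neighbouring galactose lectin gene (CD301a), gave 0.13 ± 0.15 in culture (adjusted p = 0.643) and 1.41 ± 0.15 in spleen (adjusted p = 1.48e-05).

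S100a4 encodes a calcium-binding protein linked to cell motility. In culture it read 10.55 and 10.23 in CD172a+ KO and 10.75 and 11.04 in CD172a+ WT, against 7.73 and 7.61 in CD24+ KO and 7.83 and 7.93 in CD24+ WT. In spleen it read 12.95 and 13.03 in CD172a+ KO and 13.02 and 12.98 in CD172a+ WT, against 10.77 and 9.98 in CD24+ KO and 10.84 and 10.36 in CD24+ WT. The subsets stood clear of each other in both tissues, with cultured cells lower in each subset. The difference was 2.87 ± 0.15 in culture (7.32-fold, limma adjusted p = 1.24e-07) and 2.50 ± 0.15 in spleen (5.66-fold, adjusted p = 1.01e-07). The change between them, 0.37 ± 0.22, did not pass the test (95% interval -0.11 to 0.85, adjusted p = 0.245). Without replicate 2 of spleen CD24+ KO, where S100a4 was lowest of the spleen arrays, it was 0.57 and passed (adjusted p = 0.0262).

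Lyz2 encodes lysozyme M, a bacterial cell wall hydrolase of macrophages, neutrophils and some DCs, and it was the 1 of the 7 called lower in CD172a+ cells. In culture it read 6.49 and 6.42 in CD172a+ KO and 7.16 and 6.38 in CD172a+ WT, against 11.58 and 10.66 in CD24+ KO and 11.45 and 11.12 in CD24+ WT. In spleen it read 10.20 and 10.48 in CD172a+ KO and 10.81 and 10.75 in CD172a+ WT, against 10.76 and 10.73 in CD24+ KO and 10.77 and 10.85 in CD24+ WT. The 4 cultured CD172a+ arrays stood far below the other 12, whose subsets in spleen overlapped. The difference was -4.59 ± 0.19 in culture (95% interval -5.00 to -4.17, limma adjusted p = 1.73e-08) and -0.21 ± 0.19 in spleen (95% interval -0.63 to 0.20, adjusted p = 0.463). The change was -4.37 ± 0.27 (adjusted p = 2.18e-07). With the spleen arrays fitted alone the spleen difference passed the test at the same size (adjusted p = 0.0371).

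Lyz1, the paralog of Lyz2 that encodes lysozyme P, also read lower in cultured CD172a+ cells. Its 4 culture arrays lay between 6.45 and 7.26 in CD172a+ cells and between 8.07 and 8.88 in CD24+ cells, a difference of -1.73 ± 0.18 (limma adjusted p = 1.85e-05). In spleen the range was 9.37 to 9.87 in CD172a+ and 9.60 to 9.83 in CD24+ cells, and the difference was -0.06 ± 0.18 (adjusted p = 0.853). The 2 genes are near-identical copies, so cross-hybridisation between their probe sets is possible and their values are not independent. Over the 15 listed neutrophil genes none differed between the cultured subsets by the test, and the mean of the list lay between 5.75 and 5.89 in CD172a+ and between 5.64 and 5.74 in CD24+ culture arrays. S100a8 of that list read 5.47 to 5.81 in cultured CD172a+ cells and 5.44 to 5.60 in cultured CD24+ cells. The mean of the 14 measured macrophage and monocyte markers lay between 6.78 and 6.88 in cultured CD172a+ cells and between 6.76 and 6.97 in cultured CD24+ cells. Of these markers 2 were higher and 2 lower in CD172a+ cells, or 1 higher and 2 lower without replicate 2 of culture CD24+ KO. Single markers differed within that near-equal mean. Cd68 read 7.5 to 8.2 in cultured CD172a+ and 8.6 to 9.5 in cultured CD24+ arrays. Vcam1 ran the other way, at 8.2 to 8.5 and 7.2 to 7.6.

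**Figure D2:**
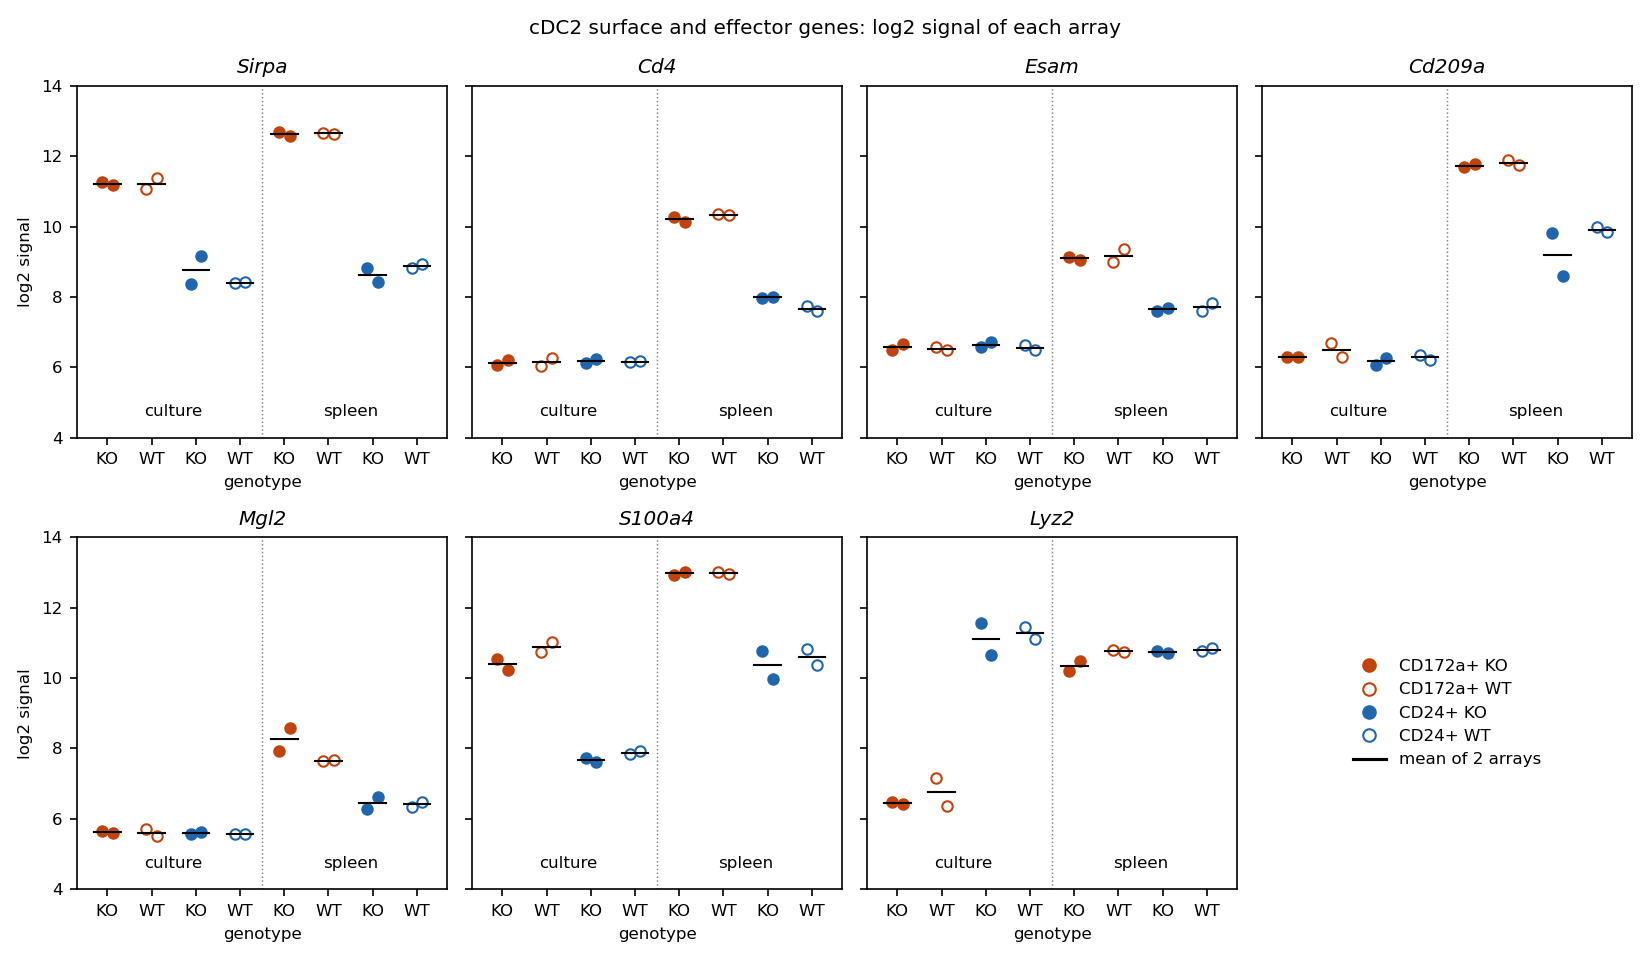
Log2 signal of the 7 genes in each of the 16 arrays, by tissue, subset and genotype. Lyz2 lies at 6.38 to 7.16 in cultured CD172a+ cells and at 10.20 to 11.58 in the other arrays, and the 4 culture groups of Cd4, Esam and Mgl2 share one low band.

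Within a subset, the level of all 7 genes was lower in cultured than in spleen CD172a+ cells, against 60.2% of all genes called lower and 76.8% in either direction. In CD24+ cells 5 of 7 were lower, against 65.3% of all genes called lower and 79.1% in either direction. The tissues look normalised as separate sets, with array medians of 6.85 to 6.92 in culture and 7.29 to 7.32 in spleen, and the median gene was shifted by -0.28 in CD172a+ and -0.34 in CD24+ cells. Relative to that shift, the largest falls in CD172a+ cells were those of Cd209a (-5.11), Cd4 (-3.86) and Lyz2 (-3.67), and the others were Esam (-2.31), S100a4 (-2.07), Mgl2 (-2.06) and Sirpa (-1.15). All 7 were also lower, with limma adjusted p of 3.34e-05 or less, after quantile normalisation or median centring of the 16 arrays. In CD24+ cells Cd209a (-3.00), S100a4 (-2.38), Cd4 (-1.32), Esam (-0.74) and Mgl2 (-0.52) were lower relative to the shift. The remaining pair depended on the scaling there. Sirpa in CD24+ cells was -0.17 as deposited (adjusted p = 0.301), 0.17 relative to the shift, and 0.46 after quantile normalisation (adjusted p = 0.0112). Lyz2 in CD24+ cells was 0.42 as deposited (adjusted p = 0.0577) and passed the test after quantile normalisation (0.54, adjusted p = 0.0229) and after median centring (0.89, adjusted p = 0.00157). Without replicate 2 of culture CD24+ KO, both also passed as deposited, Sirpa at -0.37 (adjusted p = 0.00382) and Lyz2 at 0.66 (adjusted p = 0.00167). The Lyz2 level thus fell in cultured CD172a+ cells and did not fall in cultured CD24+ cells under any of the 3 scalings.

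Ordered by group mean, spleen CD172a+ cells came highest for Sirpa, Cd4, Cd209a, Esam, Mgl2 and S100a4. For Sirpa those were followed by culture CD172a+ cells (11.23 in KO and 11.22 in WT, with overlapping arrays) and then by the CD24+ groups, which lay between 8.41 and 8.87. For Cd4 the spleen CD172a+ means were 10.21 in KO and 10.35 in WT and the spleen CD24+ means 7.99 in KO and 7.66 in WT, with no overlap between neighbours, and the 4 culture groups overlapped at the bottom. Esam had overlapping genotypes at each step, and its culture groups also shared the lowest place. For Cd209a and Mgl2 the 4 culture groups lay below the 4 spleen groups. S100a4 ran differently below the spleen CD172a+ groups. Culture CD172a+ cells (10.39 in KO and 10.90 in WT) and spleen CD24+ cells (10.38 in KO and 10.60 in WT) overlapped there, and culture CD24+ cells (7.67 in KO and 7.88 in WT) stood apart at the bottom. Lyz2 was the exception, with culture CD24+ cells (11.12 in KO and 11.28 in WT) at the top, followed by the 4 spleen groups at 10.34 to 10.81.

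The wider cDC2 programme was read from lists that also hold genes beside the 7. Of 10 other genes of the Notch2-dependent and ESAM-high list, 4 were higher and 2 lower in CD172a+ than in CD24+ cultured cells (median 0.26), against 7 higher and 1 lower in spleen (median 1.30). The change between the tissues was called lower in 8 of the 10. Clec4a4, which encodes the cDC2 lectin DCIR2, kept a difference of 1.07 ± 0.11 in culture (limma adjusted p = 1.82e-05) beside 5.86 ± 0.11 in spleen (adjusted p = 3.38e-12). Its culture values were near the lower end of the scale, at 4.96 to 5.63 in CD172a+ and 4.28 to 4.44 in CD24+ arrays. In spleen it read 10.53 to 10.76 in CD172a+ and 4.73 to 4.86 in CD24+ arrays. Itgam, which encodes the integrin chain CD11b, gave 0.65 ± 0.17 in culture (adjusted p = 0.0136) and 3.26 ± 0.17 in spleen (adjusted p = 2.13e-08). Dtx1, a Notch target in lymphocytes, gave 0.07 ± 0.09 in culture (adjusted p = 0.646) and 2.48 ± 0.09 in spleen (adjusted p = 6.43e-10).

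Of 11 other genes of the ESAM-low or Clec10a list, 3 were higher and 3 lower in CD172a+ cultured cells (median 0.06), against 8 higher and 2 lower in spleen (median 1.30). The change was called lower in 6 of the 11. Tmem176b, a membrane channel gene of cDC2 and other myeloid cells, stayed higher in culture (1.32 ± 0.19, limma adjusted p = 0.000222) as in spleen (2.10 ± 0.19, adjusted p = 2.75e-06). Csf1r, the receptor gene for macrophage colony-stimulating factor, gave 0.05 ± 0.07 in culture (adjusted p = 0.691) and 1.99 ± 0.07 in spleen (adjusted p = 7.34e-10). Clec12a, an inhibitory lectin gene, was lower in CD172a+ cells in both, at -2.50 ± 0.31 in culture and -1.92 ± 0.31 in spleen, which is against the name of its list. Of 9 listed cDC2 transcription factors, 2 were higher and 4 lower in CD172a+ cultured cells (median -0.08), against 5 higher and 1 lower in spleen (median 0.46), and the change was called lower in all 9. Notch2, Rbpj and Relb are also in the Notch2-dependent and ESAM-high list, so the counts of these lists are not independent. Irf4, a factor that cDC2 need for migration, kept 1.73 ± 0.19 in culture beside 2.76 ± 0.19 in spleen, and Zeb2, a repressor of the cDC1 fate, kept 1.77 ± 0.14 beside 2.60 ± 0.14 (adjusted p of 3.02e-05 or less in each). Rbpj, the DNA-binding partner of Notch, was lower in CD172a+ cells, at -2.04 ± 0.09 in culture and -0.47 ± 0.09 in spleen. Sirpa and S100a4 had the largest positive differences in culture among the 7 genes and the other genes of these 3 lists. Without replicate 2 of spleen CD24+ KO the change was called lower in 8 of the 9 factors, and without replicate 2 of culture CD24+ KO the ESAM-low or Clec10a list had 2 genes higher in culture. Without either array the change in Tmem176b did not pass the test (adjusted p = 0.108 and 0.0576).

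**Figure D3:**
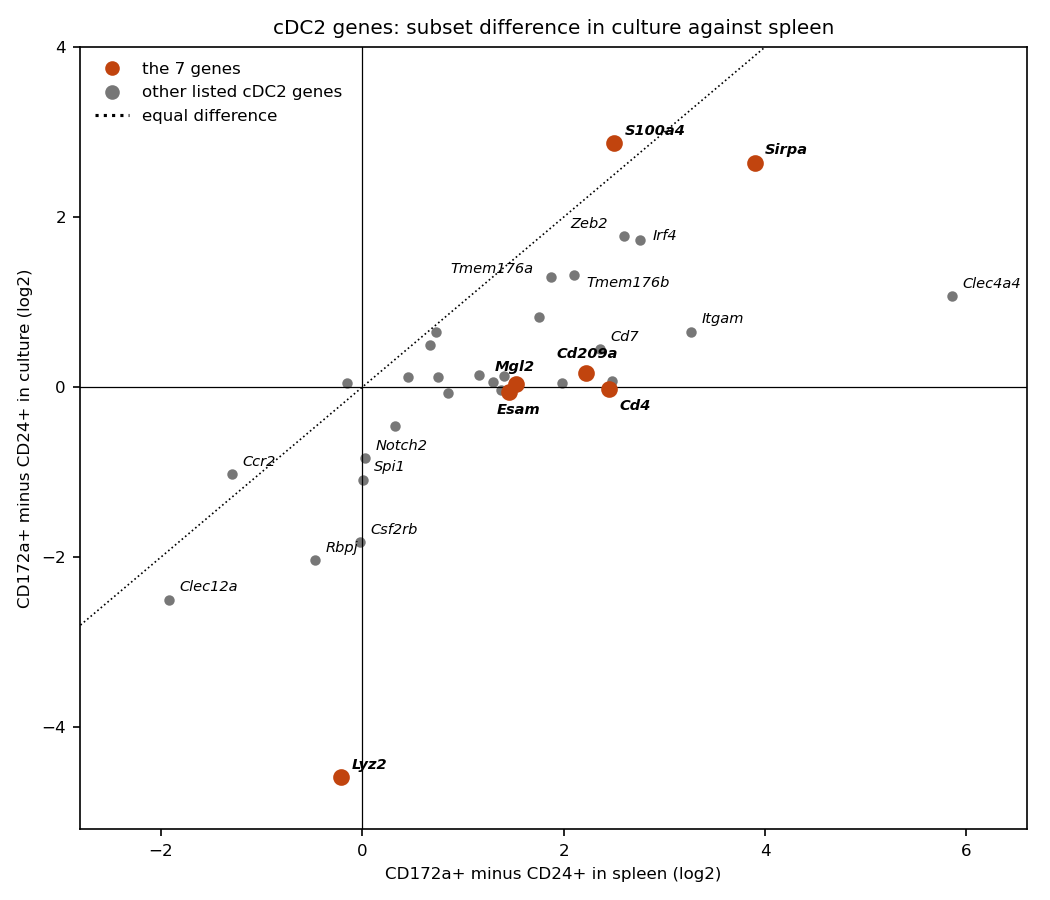
CD172a+ minus CD24+ difference in activated culture (vertical axis, log2) against spleen (horizontal axis, log2), 1 point per gene of the 7 and of the other cDC2 lists, with a dotted line of equal difference. Most listed genes lie below the line, Cd4, Esam, Cd209a and Mgl2 lie near 0 on the vertical axis, and S100a4 lies above the line.

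Counts over relatives of the 7 genes were mixed. Among 14 other S100 genes, 1 was higher and 1 lower in cultured CD172a+ cells, against 5 higher and 4 lower in spleen. Without replicate 2 of culture CD24+ KO, none was higher and 3 were lower in culture. The 3 with the largest differences were S100a8 (0.05 in culture and -1.96 in spleen), S100a1 (-0.26, or -0.40 without that array, limma adjusted p = 0.00783, and -1.87) and S100a9 (0.30 and -1.37). S100a8 and S100a9, the neutrophil calprotectin genes, were lower in spleen also without replicate 2 of CD24+ KO (-1.42 for S100a8, limma adjusted p = 0.0101, and adjusted p = 0.00183 for S100a9). Of 7 other lectin genes of the Cd209 and galactose lectin family, 1 was higher and none lower in culture, against 3 higher and 2 lower in spleen, where Cd209d ran opposite to Cd209a at -1.81 ± 0.17 (limma adjusted p = 4.07e-06) and Cd209b gave 0.97 ± 0.06 (adjusted p = 4.86e-08). The 1 call in culture was lost without replicate 2 of culture CD24+ KO. Of the 6 Esam relatives, F11r, the tight-junction gene for JAM-A, was higher in CD172a+ cells in culture (1.57 ± 0.15) and in spleen (1.15 ± 0.15, adjusted p = 6.16e-05). Jam2 of these relatives was lower in cultured CD172a+ cells (-0.22 ± 0.07, limma adjusted p = 0.043) and did not pass in spleen (-0.15 ± 0.07). Cd47, the ligand of CD172a, gave 0.17 ± 0.08 in culture (adjusted p = 0.152) and 0.39 ± 0.08 in spleen (adjusted p = 0.00255). Lag3, which like CD4 binds MHC class II, was lower in cultured CD172a+ cells (-0.34 ± 0.09, adjusted p = 0.0114) and higher in spleen CD172a+ cells (0.36 ± 0.09, adjusted p = 0.00683). Il16, listed with Lag3 beside Cd4, was lower in spleen CD172a+ cells (-0.27 ± 0.06, limma adjusted p = 0.00385) and did not pass in culture (-0.06 ± 0.06).

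Markers listed for other cells moved with part of the spleen pattern. Csf1r and Cd14 are in both the macrophage and monocyte list and the ESAM-low or Clec10a list, so they are counted in each. Of 14 measured macrophage and monocyte markers, 11 were higher in CD172a+ than in CD24+ spleen cells, and the mean of the list lay between 8.59 and 9.26 in CD172a+ and between 7.67 and 7.94 in CD24+ spleen arrays. Adgre1, a macrophage surface receptor gene with the largest spleen difference of the list, gave 0.42 ± 0.27 in culture (limma adjusted p = 0.324) and 4.14 ± 0.27 in spleen (adjusted p = 1.41e-07). The mean of the 15 neutrophil genes lay between 6.45 and 6.70 in CD172a+ and between 6.31 and 8.08 in CD24+ spleen arrays. The part of these markers in the spleen differences of the 7 genes was not tested. Of the 8 measured T cell markers, which bear on Cd4, 1 was higher and 1 lower in CD172a+ than in CD24+ spleen cells, and the lower call was lost without replicate 2 of spleen CD24+ KO. The mean of that list lay between 7.39 and 7.48 in CD172a+ and between 7.35 and 7.63 in CD24+ spleen arrays. The higher one was Cd5, a surface receptor gene of T cells and some DCs, at 9.96 to 10.08 in CD172a+ and 8.94 to 9.09 in CD24+ spleen arrays, a difference of 1.00 ± 0.05 (limma adjusted p = 5.62e-09). The part of T cells in the spleen difference of Cd4 was not tested.

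Among the 7 genes, the KO minus WT value of largest size was -0.71, for Cd209a in spleen CD24+ cells. In none of the 4 tissue and subset combinations did any of the 7 genes pass the test, where limma called 0.0602% of all genes in culture CD172a+, 0.0953% in culture CD24+, 0.0802% in spleen CD172a+ and 0.0602% in spleen CD24+ cells. Over the 28 pairs of gene and combination, 4 had an unadjusted p under 0.05 and the lowest adjusted p was 0.572. That was Mgl2 in spleen CD172a+ cells, at 7.94 and 8.59 in KO against 7.63 and 7.66 in WT, a difference of 0.61 ± 0.17. Without KO replicate 1, 1 array is left in the KO group, its spread is taken from the other groups, and the value was 0.94 (adjusted p = 0.0373). The other 3 were Cd4 in spleen CD24+ cells (0.32 ± 0.09, adjusted p = 0.853), Cd209a in spleen CD24+ cells (-0.71 ± 0.28, adjusted p = 1) and S100a4 in culture CD172a+ cells (-0.51 ± 0.22, adjusted p = 0.735). Cd209a was -1.32 without KO replicate 1 (adjusted p = 0.0078), which leaves the array with high neutrophil genes as the lone KO array. Sirpa in culture CD24+ cells was 0.76 without KO replicate 1 (adjusted p = 0.0116), which leaves the array with the lowest Xcr1. With 2 arrays a group, a change that misses the threshold does not show that the genotypes were alike.

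The subset pattern of each gene held in each genotype fitted alone. In culture the KO difference was -0.04 for Cd4, -0.07 for Esam, 0.13 for Cd209a and 0.03 for Mgl2, and the WT difference was -0.01, -0.03, 0.21 and 0.04 in the same order. Sirpa gave 2.46 in KO and 2.82 in WT culture, and 4.01 and 3.78 in spleen. S100a4 gave 2.72 in KO and 3.02 in WT culture, and 2.61 and 2.39 in spleen. Lyz2 gave -4.66 in KO and -4.51 in WT culture, and -0.40 and -0.03 in spleen. The fits of KO arrays and of WT arrays each called 3 of the 7 genes in culture, 6 in spleen and 6 for the change between them. Of all 19938 genes, the fit of KO arrays called 1534 in culture, 2907 in spleen and 2178 for the change. The fit of WT arrays called 3971, 4098 and 3958 in the same order.

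**Figure D4:**
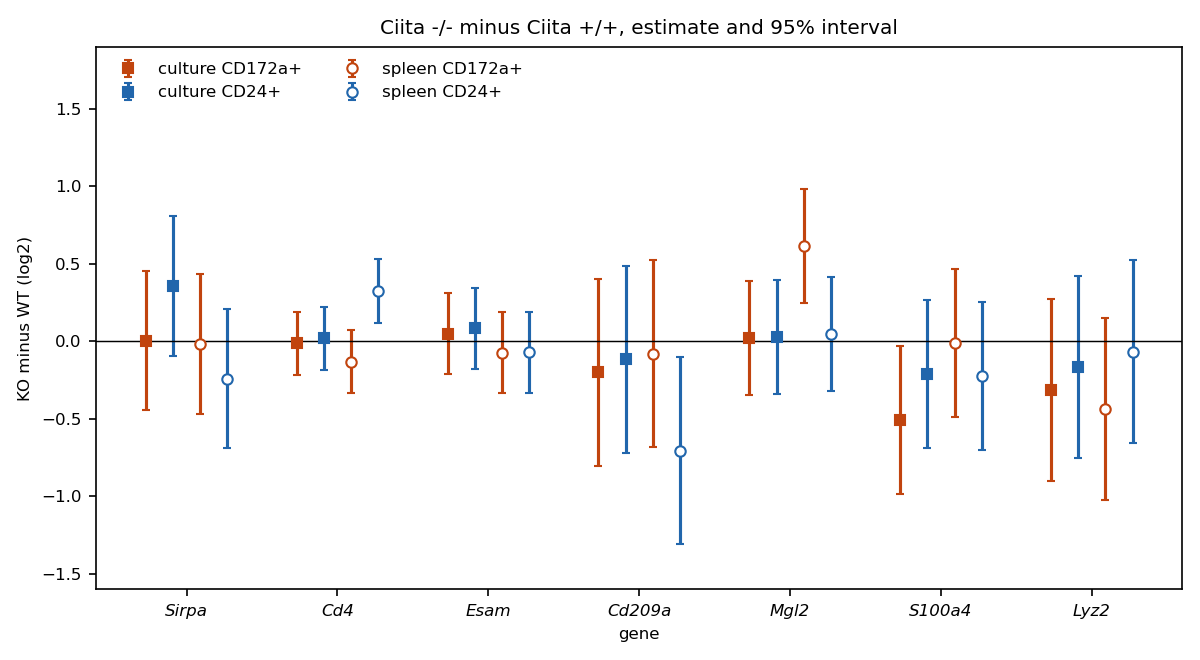
KO minus WT difference of the 7 genes (log2, with 95% interval) in each tissue and subset, from 2 arrays of each genotype. All intervals but 4 cross 0, Mgl2 in spleen CD172a+ cells lies above it at 0.61, and no gene passed the adjusted test.

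The 7 genes were alike in part across the 16 arrays, after each array's median was subtracted. These correlations (Pearson r, n = 16 arrays) are descriptions, since the arrays share the same tissue and subset groups. Cd4 and Esam had r = 0.990, Cd4 and Cd209a 0.954, and Esam and Mgl2 0.952, while Sirpa and S100a4 had 0.813 and Lyz2 and Sirpa -0.507. Among all 19938 genes, the most alike to Cd4 were Ggt5 (0.998), I730030J21Rik (0.997) and Cd300ld (0.997), and to Esam Pglyrp1 (0.993), Ube2e2 (0.993) and Sash1 (0.992). For Cd209a they were Cd7 (0.997), Cd33 (0.995) and Cd300a (0.994), and for Mgl2 Dao (0.986), Slc37a2 (0.981) and Cacnb4 (0.980). For Sirpa they were Sh3kbp1 (0.979), Zeb2 (0.979) and Nrros (0.976), and for S100a4 Gpr183 (0.978), Tsr2 (0.967) and Evi5 (0.961). Lyz2 was matched most closely by Entpd1 (0.985), Cdc14a (0.983) and Dnase1l3 (0.976).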

How the data were processed

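Gene expression of 16 sorted DC samples was read on Affymetrix arrays. EZNA MicroElute columns, TURBO DNase and Ovation Pico WTA amplification were used, per the labels. Each probe set has 1 deposited value per array, a log2 signal computed by the authors. How background, normalisation and summarisation were handled is not given in the sources at hand. That the scale is log2 follows from the range of the values, 3.06 to 14.6. The number of arrays limits the precision.

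Of 30177 probe sets, 21789 had 1 gene symbol (21698 named through their Entrez ID), 1621 had several and 6767 had none. A gene was read from its probe set with the highest mean, which left 19938 genes, 999 of them with more than 1 probe set. Sirpb1a, Sirpb1b and Sirpb1c had no probe set of their own here.

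Tests used limma 3.58.1 in R 4.3.3, with 1 mean per group over 16 arrays (8 residual and 3.95 prior degrees of freedom), 2-sided p values, Benjamini-Hochberg adjustment over 19938 genes and a threshold of 0.05. The subset difference is CD172a+ minus CD24+, as the mean of both genotypes. In simulated data with independent noise for each array, the fit returned the sizes of added differences on average. That simulation held no mouse effect, so it does not test the p values of paired arrays. The 7 genes and the gene lists were chosen with earlier results of these data known. Genes named beside them are, per list, up to 3 with the largest absolute subset difference among those called, the paralogs, Cd24a as sort antigen, and the 3 genes with the highest correlation to each of the 7. Levels of Ngp, S100a8, Batf3, Irf8, Itgax, Tcf4, Pacsin1, Ccr9, Siglech, Cd68 and Vcam1, and the red cell values, were named after their values were seen.

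Per the labels both arrays of a mouse share 1 animal, so they are paired. The correlation across genes of their deviations from the group means was 0.393 in culture KO, 0.205 in culture WT, 0.202 in spleen KO and -0.0957 in spleen WT. Mice of the 2 genotypes were separate and gave no pairs. Nothing in the labels says more on separate cultures. The main fit held no mouse block and took both arrays of a mouse as independent. Its p values and SE rest on 1 spread per gene, pooled over the 8 groups and both tissues. They do not measure the spread of the differences within mice. The alternatives were quantile normalisation, median centring, 1 tissue alone, the mouse as replicate block, other probe set rules, a filter on dim genes, trend and robust fits, 1 genotype alone, and leaving out each array or mouse. The list counts without replicate 2 of spleen CD24+ KO or of culture CD24+ KO were added after seeing the data.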

Additional observations from a re-analysis of the deposited data

Results flagged for a closer look

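A test of the difference itself found the CD172a+ minus CD24+ difference to differ between culture and spleen for 6 of the 7 genes. Culture minus spleen, in log2 units, was -1.26 for Sirpa, -2.48 for Cd4, -2.05 for Cd209a, -1.51 for Esam, -1.49 for Mgl2 and -4.37 for Lyz2.

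The same test passed for these named genes of the lists. The change was negative for Clec4a4 (-4.79), Itgam (-2.61), Dtx1 (-2.40), Tmem176b (-0.78), Csf1r (-1.93), Irf4 (-1.03), Zeb2 (-0.83), Rbpj (-1.57), Clec10a (-1.28), Cd209b (-0.86), Lyz1 (-1.67), Lag3 (-0.71), Adgre1 (-3.72), Ms4a7 (-2.69) and Cd5 (-1.06). It was positive for S100a8 (2.01), S100a1 (1.61), S100a9 (1.67), Cd209d (1.84), Xcr1 (1.48), Clec9a (0.95), Cd36 (0.79), Cd247 (0.27) and Cd24a (1.98). Without replicate 2 of spleen CD24+ KO, Tmem176b (limma adjusted p = 0.108) and Cd36 (adjusted p = 0.0945) did not pass, nor did they without replicate 2 of culture CD24+ KO (adjusted p = 0.0576 and 0.0741).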

How the results depend on the processing

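Of 2065 recomputed values of the 7 genes, 1993 kept their direction and their side of the threshold. No call was lost, 20 values gained one and 53 changed sign, 1 of which was also a gained call. With the mouse as a replicate block, as both arrays of an animal are paired, 3 of the 7 genes were called in culture, 6 in spleen and 6 for the change between them, and no call on the 7 genes changed. All genes called with that block were 5258 in culture, 6101 in spleen and 5939 for the change, against 4966, 5793 and 5630 without it. With KO arrays alone they were 1534, 2907 and 2178, and with WT arrays alone 3971, 4098 and 3958, each in a fit of fewer arrays. Leaving out 1 array or mouse gave 3342 to 5866 genes in culture, 4093 to 6611 in spleen and 4326 to 6480 for the change, while the 7 genes gave 3, 6 and 6 to 7 calls.

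Gained calls were Lyz2 in spleen, S100a4 for the change, Lyz2 and Sirpa for culture minus spleen in CD24+ cells, and, with 1 array left in the KO group, Mgl2, Cd209a and Sirpa for genotype. S100a4 also gained one without the mouse of that array (0.59, limma adjusted p = 0.0434). Culture minus spleen in CD24+ cells passed for Lyz2 without replicate 2 of culture CD24+ KO (0.66) and without the culture WT mouse of replicate 2 (0.51). It also passed for Lyz2 without either culture CD172a+ WT array (0.42 each). Those arrays are not part of that comparison, so only the pooled spread changed. For Sirpa it passed without replicate 2 of culture CD24+ KO (-0.37) or with WT arrays alone (-0.47, limma adjusted p = 0.00254). Leaving out an array or mouse gave 0 to 1 of the 7 genes called for genotype in culture CD24+, spleen CD172a+ and spleen CD24+ cells.

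Sign changes outside the leave-out fits were Sirpa for culture minus spleen in CD24+ cells (0.46 after quantile normalisation, 0.29 after median centring and 0.13 in KO arrays alone, against -0.17), and Sirpa for genotype in culture CD172a+ cells (-0.0128 after median centring). The cause was not tested. Leave-out fits crossed 0 as follows. The culture subset difference ranged over -0.0871 to 0.035 for Cd4 and -0.0195 to 0.0915 for Mgl2, and culture minus spleen in CD24+ cells over -0.37 to 0.0339 for Sirpa. KO minus WT in culture CD172a+ cells ranged over -0.14 to 0.11 for Cd4, -0.0398 to 0.14 for Esam, -0.71 to 0.0784 for Lyz2, -0.0881 to 0.13 for Mgl2 and -0.15 to 0.15 for Sirpa. In culture CD24+ cells it ranged over -0.031 to 0.0686 for Cd4, -0.63 to 0.30 for Lyz2 and -0.0489 to 0.76 for Sirpa. In spleen CD172a+ cells it ranged over -0.26 to 0.11 for Esam, -0.0493 to 0.0305 for S100a4 and -0.0776 to 0.0406 for Sirpa. In spleen CD24+ cells it ranged over -0.18 to 0.0312 for Esam, -0.12 to 0.22 for Mgl2 and -0.62 to 0.17 for S100a4. Signal over background cannot be read here.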
